A study of Mus musculus with 8 samples.

Results

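The genes described here are the erythroid and heme synthesis genes of mouse bone marrow progenitors: 36 genes listed by symbol as erythroid transcription factors, receptors, heme synthesis enzymes, globins, red cell membrane proteins and red cell enzymes. Of the 36, 34 were found among the 29955 gene names measured, 33 under the same symbol and 1, Sptb, under its older name Spnb1. Hba-a1 and Hbb-b2 were not found, so that their levels were not analysed here. RNA-seq was made from 8 libraries of sorted bone marrow cells of WT and Ripk3-/- (Ripk3-KO) mice (strain background CD57BL6/J in the labels, C57BL/6J in the study's text), with 2 libraries for each of the 2 genotypes in each of 2 cell populations. LSK cells are Lin- Sca1+ Kit+ cells, which hold the stem cells and multipotent progenitors, and LK cells, labelled Lin- Kit+, hold the committed myeloid and erythroid progenitors. Ripk3 is a kinase of the necroptosis pathway, and the Ripk3-/- mice lack it in all their cells. The labels state that the cells were taken with no treatment, whereas the study's text places the collection a month after the last of a series of weekly X-ray doses in both genotypes. Whether the 2 libraries of a group came from separate mice is not stated, so that p-values measure only the spread between these libraries. The age of the mice is not given in the sources used here.

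Red cells arise from multipotent progenitors through megakaryocyte and erythroid progenitors that come to depend on erythropoietin and its receptor Epor. Gata1 and Klf1 are the transcription factors that switch on the red cell genes, and Gata1 binds DNA at short GATA elements. Heme is built in a chain of enzymes that starts with an aminolevulinate synthase (Alas2 in red cells, Alas1 elsewhere), passes through Alad, Uros, Urod, Cpox and Ppox, and ends with Fech, which inserts the iron. The sort used a lineage cocktail with Ter119, an antigen of late erythroblasts, so that precursors which carried it were gated out.

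Since Gata1 is among the genes described below, GATA elements were looked for in the promoters of the members. RefSeq promoters (build GRCm38.p6) were held for 26 of the 36 members, in 31 entries. The 250 bases upstream of each start were searched on both strands for the hexamer AGATAA, its form with G as the last base, and the same pair with T as the first base. A hexamer was present in 17 of the 31 entries (54.8%), each of another member, and in 8718 of all 32851 promoters of the table (26.5%). By member, a hexamer was present in 17 of the 26, among them Hba-a1, which was not found among the genes measured. It was present in 9 of the 13 with a promoter that were higher in LK cells in both genotypes, as described below. The choice of stretches shown therefore does not reflect how often hexamers occur in members that were higher in LK cells and in the others. A match describes letters only and is not a binding site shown in these cells. Below are stretches around a hexamer for 7 members that were higher in LK than in LSK cells in both genotypes, and for Hba-a2, which was not, each from 5′ to 3′ on the strand of its gene with the hexamer, or its reverse complement, in capitals:
Klf1, chr8:84901880-84901929, plus strand: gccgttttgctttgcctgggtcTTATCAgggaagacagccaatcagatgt
Epor, chr9:21963603-21963652, minus strand: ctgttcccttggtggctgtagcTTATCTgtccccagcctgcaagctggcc
Cpox, chr16:58670100-58670149, plus strand: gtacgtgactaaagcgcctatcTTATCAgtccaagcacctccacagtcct
Rhd, chr4:134864471-134864520, plus strand: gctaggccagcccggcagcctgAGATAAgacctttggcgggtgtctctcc
Rhag, chr17:40811096-40811145, plus strand: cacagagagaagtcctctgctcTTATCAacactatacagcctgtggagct
Kel, chr6:41704354-41704403, minus strand: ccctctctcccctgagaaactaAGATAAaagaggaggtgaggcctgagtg
Ermap, chr4:119190035-119190084, minus strand: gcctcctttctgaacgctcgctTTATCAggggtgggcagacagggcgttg
Hba-a2, chr11:32296284-32296333, plus strand: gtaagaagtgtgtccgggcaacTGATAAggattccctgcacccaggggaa
The hexamer in capitals ended 74 bases before the start in Klf1, 48 in Epor, 80 in Cpox, 37 in Rhd, 25 in Rhag, 50 in Kel, 61 in Ermap and 180 in Hba-a2. Cpox held a further match, CTATCT, that overlapped the marked one and ended 85 bases before the start. Kel held a further TGATAA that ended 13 bases before the start, outside the stretch shown. The starts of Epor and Cpox are those of the RefSeq table, and the bases after them were not found in a transcript of the gene in the GENCODE reference, unlike those of the other 6. The promoters held for Gata1, Tfrc, Aqp1 and Mt2 had none of the hexamers in these 250 bases.

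Libraries held 9782166 to 16280811 reads in genes. Ripk3, the targeted gene, lay between 144 and 168 (deposited signal, the authors' scaled CPM, which is reads relative to library depth) in the 4 WT libraries and between 1.08 and 16.2 in the 4 Ripk3-/- libraries. Ly6a, which encodes Sca1, lay between 141 and 237 in LSK and between 0.124 and 4.12 in LK libraries, and Kit between 223 and 464 in all 8. Xist was at 108 to 413 in the WT libraries and at 0.00 to 1.27 in the Ripk3-/- libraries, and Eif2s3y, on the Y chromosome, at 0.00 in WT and at 47.0 to 98.8 in Ripk3-/- libraries. Genotype and sex therefore differ together in every comparison of genotypes and cannot be told apart, which also touches Gata1 and Alas2, both X-linked.

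**Figure D1:**
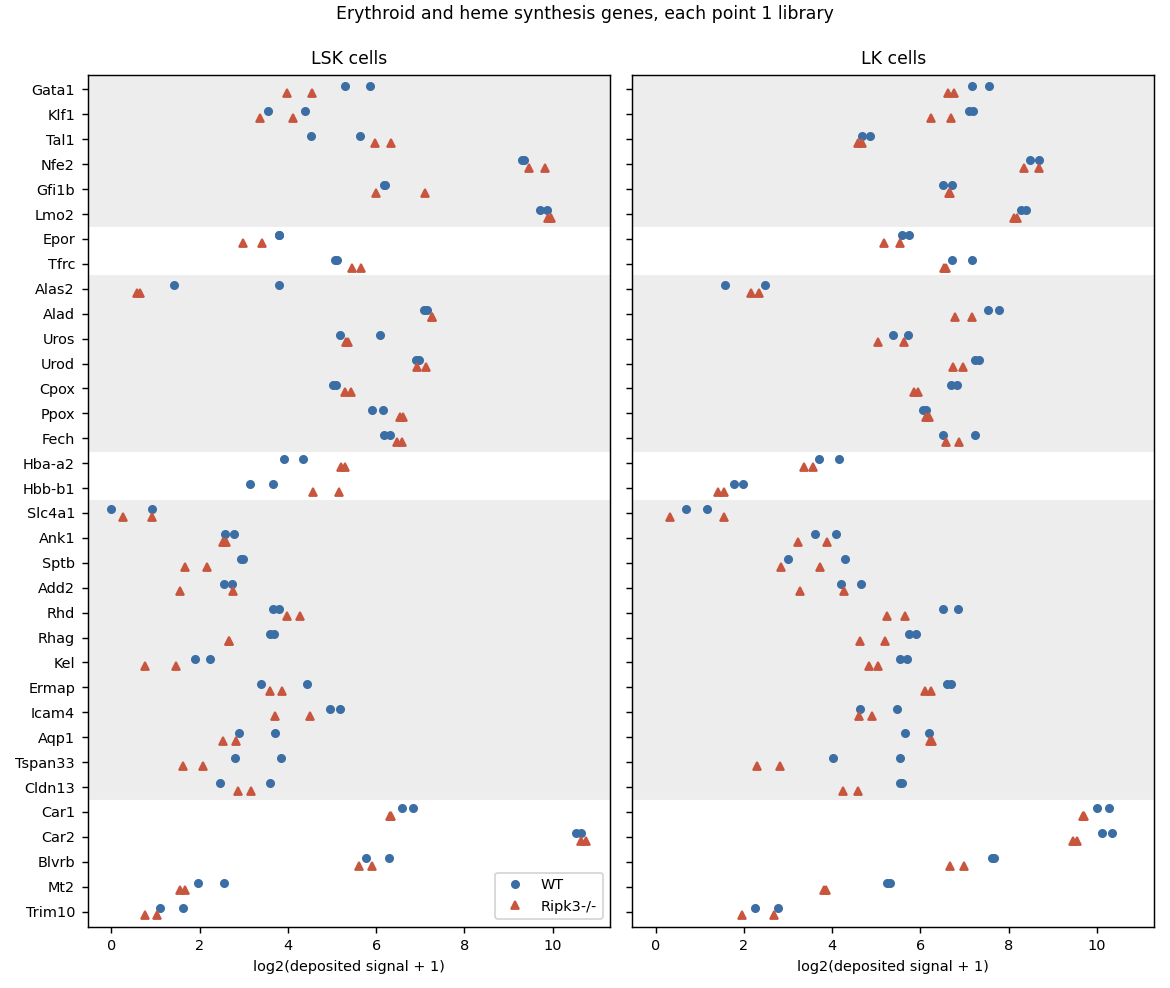
Levels of the 34 members found, in LSK cells (left) and LK cells (right), as log2(deposited signal + 1), each point 1 library, circles WT and triangles Ripk3-/-; grey and white bands separate the groups of genes by role. The 2 populations were scaled apart by the authors, so that points are to be compared within a panel. Most members had replicates close together, while Alas2 in WT LSK and Tspan33 in WT LK cells had replicates far apart.

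The first question was how far the members set LK cells apart from LSK cells, for which all 8 libraries were put on 1 scale (CPM with TMM factors over all libraries). In WT cells, 21 of the 33 members tested were higher in LK than in LSK cells and 1 was lower; of all 15950 genes tested, 14.8% were higher and 9.16% lower (limma, Benjamini-Hochberg adjusted p under 0.05). In Ripk3-/- cells 16 of 33 were higher and 6 lower, against 12.2% and 7.95% of 15237 genes. The median log2 fold change of the members was 1.49 in WT and 1.37 in Ripk3-/- cells, where the medians of all genes were -0.08 and 0.00. Slc4a1 was under the minimum mean level and was not tested. Every LK library lay above every LSK library for 24 members in WT and 24 in Ripk3-/- cells, against 31.2% and 30.1% of all genes, and below for 3 and 6, against 32.8% and 27.5%. In bulk RNA, a higher level can stem from more cells of a type or from more RNA per cell, and the 2 cannot be told apart here.

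The WT and the Ripk3-/- comparisons contrast different libraries. Both came from 1 fit, with the spread of each gene and the scale estimated over all 8 libraries, so that their calls are not separate tests. In both, 15 members were higher in LK cells, which is 15 of the 21 in WT and 15 of the 16 in Ripk3-/- cells. Of all genes, 14.8% were higher in WT and 12.2% in Ripk3-/- LK cells. The share of all genes higher in both was not counted, so that this overlap cannot be read as particular to the members. The 15 members were the factors Gata1 and Klf1, the receptors Epor and Tfrc, the enzyme Cpox, the membrane genes Add2, Rhd, Rhag, Kel, Ermap, Aqp1 and Cldn13, and Car1, Blvrb and Mt2. For 12 of the 15 the call held in both genotypes under each of 12 alternatives in WT and 13 in Ripk3-/- cells, and the exceptions were Cpox, Add2 and Cldn13. In Ripk3-/- cells Cpox lost its call without Ripk3-/- LSK replicate 1 (adjusted p = 0.0574), LK replicate 1 (0.0674) or LK replicate 2 (0.126), and also with no trend (0.0563), on the deposited scale (0.55, 0.144) and with total reads alone (0.60, 0.105). Add2 lost it there without LSK replicate 2 (0.180) or LK replicate 2 (0.250), with no filter (0.0688) and with no trend (0.0541), and in WT cells without LK replicate 1 (0.0501) or LK replicate 2 (0.0841). Cldn13 lost it in Ripk3-/- cells without LSK replicate 1 (0.0517) or LK replicate 2 (0.103), all by limma.

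The result depended on the common scale. With each population left on its deposited scale, the median of all genes moved from -0.08 to -0.41 in WT and from 0.00 to -0.34 in Ripk3-/- cells, and genes called higher fell from 61.7% to 29.1% and from 60.5% to 28.7% of all called. The members called were then 15 higher and 2 lower in WT, and 14 higher and 6 lower in Ripk3-/- cells. Tal1, Uros, Hba-a2, Icam4 and Car2 turned from above to below 0 in WT cells, and Alad, Uros and Urod in Ripk3-/- cells. The members' median lay above that of all genes on either scale, at 1.16 and 1.01 on the deposited one.

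**Figure D2:**
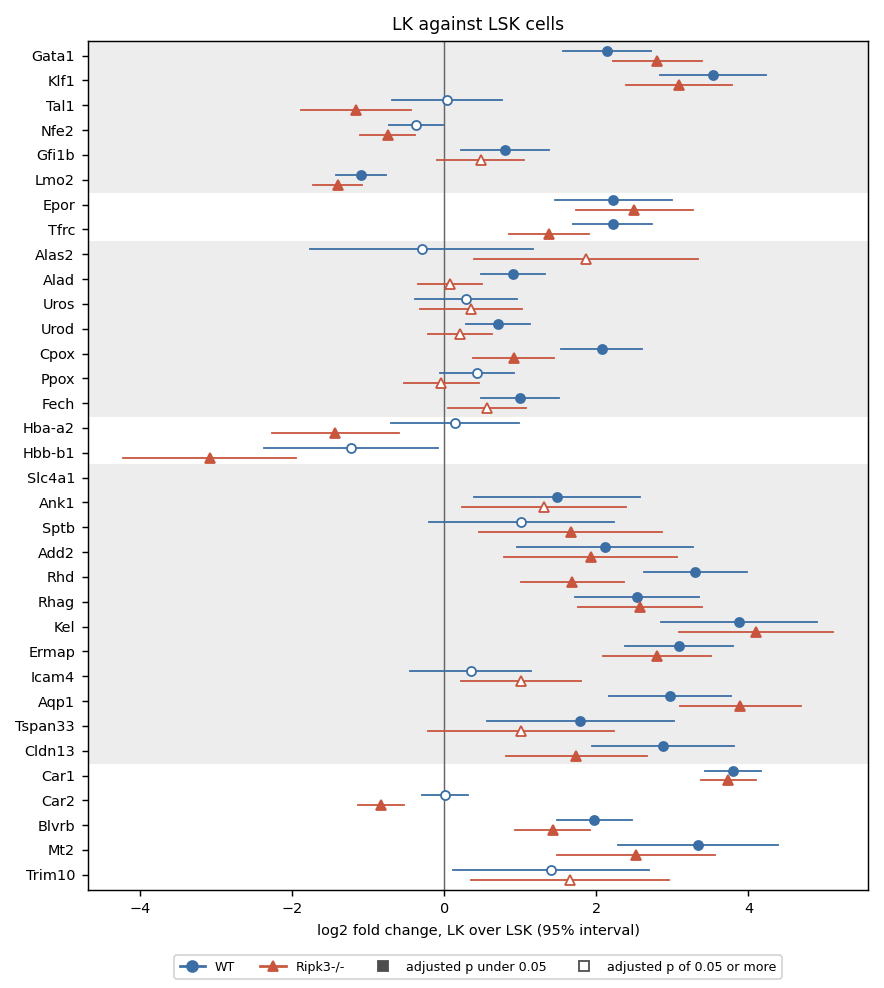
Log2 fold change of LK over LSK cells for each member in WT (circles) and Ripk3-/- cells (triangles) with the 95% interval of the limma fit on log2(CPM + 1); filled symbols have an adjusted p under 0.05, and Slc4a1 was not tested. Gata1, Klf1, both receptors and most membrane genes lie to the right of 0 in both genotypes, and Lmo2 lies to the left in both.

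Among the transcription factors, Klf1, the factor of the beta-globin promoter, stood at 17.4 and 9.46 CPM in WT LSK, 14.4 and 8.21 in Ripk3-/- LSK, 166 and 154 in WT LK, and 84.9 and 118 in Ripk3-/- LK libraries. Gata1 stood at 50.4 and 33.4 CPM in WT LSK, 19.7 and 12.8 in Ripk3-/- LSK, 162 and 210 in WT LK, and 111 and 123 in Ripk3-/- LK libraries. For both genes each LK library lay above each LSK library. The log2 difference of LK over LSK was 3.54 ± 0.34 (SE, n = 2 against 2) in WT and 3.09 ± 0.34 in Ripk3-/- cells for Klf1, and 2.14 ± 0.28 and 2.80 ± 0.28 for Gata1 (limma, adjusted p at most 8.89e-06 for Gata1 and 5.57e-07 for Klf1). Lmo2, a partner protein of Tal1 and Gata1 that stem cells use too, went the other way. It had 733 and 819 CPM in WT LSK and 847 and 872 in Ripk3-/- LSK, but 379 and 347 in WT LK and 316 and 335 in Ripk3-/- LK libraries. Its log2 difference was -1.09 ± 0.16 in WT and -1.40 ± 0.16 in Ripk3-/- cells (limma, adjusted p = 2.78e-05 and 7.46e-07).

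The remaining factors passed in 1 genotype only, and the difference between genotypes did not pass for any of them (limma, adjusted p 0.423 or more). Tal1, a stem cell and erythroid factor, was lower in LK than LSK cells of Ripk3-/- mice (-1.15 ± 0.35, adjusted p = 0.0209) and at 0.04 ± 0.35 in WT cells (0.943). Its call went when any of the 4 Ripk3-/- libraries was left out (adjusted p 0.0511, 0.169, 0.110 and 0.0982 without LSK replicate 1, LSK replicate 2, LK replicate 1 and LK replicate 2), and with no filter or no trend (0.0725 and 0.111). Nfe2, the p45 subunit of NF-E2, was lower in LK cells of Ripk3-/- mice (-0.75 ± 0.17, adjusted p = 0.00336) and at -0.37 ± 0.17 in WT cells (0.120). Without Ripk3-/- LSK replicate 1 or LK replicate 1 the Nfe2 value no longer passed (0.0722 and 0.0806), nor with no trend (0.130). Gfi1b, a repressor of erythroid and megakaryocyte cells, was higher in WT LK cells (0.80 ± 0.28, adjusted p = 0.0406) and at 0.48 ± 0.28 in Ripk3-/- cells (0.254). The Gfi1b call was lost under 10 of 12 alternatives, including each left-out library (adjusted p 0.129, 0.134, 0.240 and 0.0940 without WT LSK replicate 1, LSK replicate 2, LK replicate 1 and LK replicate 2).

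Both receptors were higher in LK cells. Epor, the erythropoietin receptor, had 11.2 and 11.3 CPM in WT LSK, 8.62 and 5.99 in Ripk3-/- LSK, 59.9 and 52.9 in WT LK, and 39.7 and 51.7 in Ripk3-/- LK libraries. The log2 differences for Epor were 2.22 ± 0.37 in WT and 2.50 ± 0.37 in Ripk3-/- cells (limma, adjusted p = 1.68e-04 and 3.43e-05). Tfrc, the transferrin receptor that brings iron into the cell, had 29.6 and 28.4 CPM in WT LSK, 43.9 and 37.1 in Ripk3-/- LSK, 119 and 161 in WT LK, and 104 and 109 in Ripk3-/- LK libraries. No LK library overlapped an LSK library for either receptor. For Tfrc the differences were 2.22 ± 0.25 in WT and 1.37 ± 0.25 in Ripk3-/- cells (adjusted p = 1.40e-06 and 3.79e-04).

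Of the 7 heme synthesis enzymes, 4 were higher in WT LK cells (Cpox, Fech, Alad and Urod), Cpox alone in Ripk3-/- LK cells, and none was lower. Of all genes, 14.8% were higher and 9.16% lower in WT, and 12.2% and 7.95% in Ripk3-/- LK cells. The 1 of 7 in Ripk3-/- cells was near the share of all genes. Cpox, the coproporphyrinogen oxidase, had 28.9 and 27.6 CPM in WT LSK, 33.7 and 36.8 in Ripk3-/- LSK, 117 and 126 in WT LK, and 64.8 and 69.4 in Ripk3-/- LK libraries. Its LK libraries all lay above its LSK libraries, with log2 differences of 2.07 ± 0.26 in WT and 0.91 ± 0.26 in Ripk3-/- cells (limma, adjusted p = 4.61e-06 and 0.0139). In WT cells the differences were 0.996 ± 0.25 for Fech, the ferrochelatase (0.00571), 0.90 ± 0.20 for Alad, the aminolevulinate dehydratase (0.00270), and 0.70 ± 0.20 for Urod, the uroporphyrinogen decarboxylase (0.0150). Without WT LK replicate 1 these 3 no longer passed (adjusted p 0.177, 0.0634 and 0.0793), and Urod was lost also without WT LSK replicate 1 (0.0601) or WT LK replicate 2 (0.0822). All 3 calls were also lost on the deposited scale (differences of 0.63, 0.54 and 0.34, adjusted p 0.0693, 0.0597 and 0.221), with total reads alone (0.58, 0.48 and 0.28, adjusted p 0.0730, 0.0630 and 0.278) and with no trend (adjusted p 0.0812, 0.0656 and 0.0969). In Ripk3-/- cells they stood at 0.57 ± 0.25, 0.07 ± 0.20 and 0.20 ± 0.20 and did not pass, and no difference between genotypes passed. Uros and Ppox passed in neither genotype.

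Alas2, the first enzyme of the chain in red cells, was low in every library, with 130 and 16 reads in WT LSK, 7 and 5 in Ripk3-/- LSK, 67 and 26 in WT LK, and 55 and 66 in Ripk3-/- LK libraries. WT LSK replicate 1 stood apart with the highest value of all 8. The Alas2 difference of LK over LSK was -0.30 ± 0.71 in WT and 1.86 ± 0.71 in Ripk3-/- cells (limma, adjusted p = 0.783 and 0.0699). Alas1, the aminolevulinate synthase of other tissues and not one of the 36, had 109 and 134 CPM in WT LSK and 154 and 107 in Ripk3-/- LSK, and 1343 and 1040 in WT LK and 1164 and 1443 in Ripk3-/- LK libraries on the common scale. The Alas1 difference was 3.28 ± 0.20 in WT and 3.32 ± 0.20 in Ripk3-/- cells (adjusted p = 5.22e-11 and 3.57e-11).

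Neither globin was called higher in LK cells in either genotype. Hbb-b1, an adult beta globin, had 6.89 and 10.3 CPM in WT LSK, 20.2 and 30.3 in Ripk3-/- LSK, 3.33 and 2.76 in WT LK, and 1.87 and 2.21 in Ripk3-/- LK libraries. Hba-a2, an adult alpha globin, had 12.3 and 17.0 CPM in WT LSK, 31.6 and 33.3 in Ripk3-/- LSK, 13.7 and 18.9 in WT LK, and 12.2 and 10.6 in Ripk3-/- LK libraries. The Ripk3-/- LSK libraries were the highest for both genes. In Ripk3-/- cells LK were below LSK cells by -3.08 ± 0.55 for Hbb-b1 and -1.43 ± 0.40 for Hba-a2 (limma log2 difference, adjusted p = 2.76e-04 and 0.0136). The Hba-a2 call was lost when any of the 4 Ripk3-/- libraries was left out (adjusted p 0.0605, 0.0887, 0.0533 and 0.111 without LSK replicate 1, LSK replicate 2, LK replicate 1 and LK replicate 2). In WT cells the differences were -1.23 ± 0.55 and 0.14 ± 0.41 and did not pass (0.108 and 0.818). In the reference transcripts the coding sequences of Hba-a1 and Hba-a2 share 428 of 429 bases, and those of Hbb-bs and Hbb-bt 443 of 444. Reads of such pairs could have been given to either copy or left uncounted, as the counting tool is not given. Each globin value is therefore uncertain as that of 1 gene.

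Membrane and cytoskeleton genes formed the largest group of members. Of its 11 genes tested, 9 were higher in WT LK cells and 8 in Ripk3-/- LK cells, and none was lower. Of all genes, 14.8% were higher in WT and 12.2% in Ripk3-/- LK cells. Kel, the peptidase that carries the Kell blood group, had 3.23 and 2.36 CPM in WT LSK, 1.57 and 0.599 in Ripk3-/- LSK, 58.2 and 51.0 in WT LK, and 31.3 and 36.3 in Ripk3-/- LK libraries. Aqp1, the water channel, had 10.5 and 5.64 CPM in WT LSK, 5.41 and 4.19 in Ripk3-/- LSK, 56.4 and 81.1 in WT LK, and 86.2 and 83.6 in Ripk3-/- LK libraries. The log2 differences were 3.88 ± 0.49 and 4.10 ± 0.49 for Kel and 2.97 ± 0.39 and 3.90 ± 0.38 for Aqp1, WT first (limma, adjusted p at most 8.29e-06 for Aqp1 and 6.30e-06 for Kel).

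The Rh proteins were among them. Rhd, the Rh blood group protein, had 10.2 and 11.4 CPM in WT LSK, 16.2 and 12.8 in Ripk3-/- LSK, 131 and 102 in WT LK, and 41.9 and 56.4 in Ripk3-/- LK libraries. Rhag, its partner in the membrane, had 9.76 and 10.4 CPM in WT LSK, 4.77 and 4.71 in Ripk3-/- LSK, 67.2 and 59.0 in WT LK, and 40.6 and 27.3 in Ripk3-/- LK libraries. Each LK library again exceeded each LSK library. The differences were 3.30 ± 0.33 in WT and 1.68 ± 0.33 in Ripk3-/- cells for Rhd, and 2.53 ± 0.39 and 2.58 ± 0.39 for Rhag (limma, adjusted p at most 6.62e-04 for Rhd and 7.76e-05 for Rhag). Ermap, an erythroblast membrane protein, differed by 3.09 ± 0.34 and 2.79 ± 0.34, Cldn13, a claudin, by 2.88 ± 0.45 and 1.74 ± 0.45, and Add2, beta adducin of the membrane skeleton, by 2.11 ± 0.56 and 1.92 ± 0.55.

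Ank1, the ankyrin that ties band 3 to the skeleton, passed in WT cells (1.49 ± 0.53, adjusted p = 0.0436) but under 2 of 12 alternatives alone, and stood at 1.31 ± 0.52 in Ripk3-/- cells (0.0830). Its call was lost with each WT library left out (adjusted p 0.0853, 0.126, 0.117 and 0.207 without LSK replicate 1, LSK replicate 2, LK replicate 1 and LK replicate 2). Sptb, beta spectrin, passed in Ripk3-/- cells (1.66 ± 0.58, 0.0457) under 3 of 13 alternatives, and lost its call with each Ripk3-/- library left out (0.185, 0.0902, 0.305 and 0.0750 in the same order). Tspan33, a tetraspanin of erythroid progenitors, was higher in WT LK cells (1.79 ± 0.59, adjusted p = 0.0323), with WT LK replicates of 51.7 and 17.1 CPM and WT LSK replicates of 11.7 and 5.27 CPM. Without WT LK replicate 1 the Tspan33 difference was 1.02 (0.406), and without WT LSK replicate 2 it was 1.28 (0.216), and in all the call was lost under 7 of 12 alternatives. Icam4, the LW blood group protein, passed in neither genotype. Slc4a1, band 3, the anion exchanger of the mature red cell, held 0 to 31 reads a library.

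The red cell enzyme Car1, carbonic anhydrase 1, gave the smallest p of all members. It had 99.0 and 83.7 CPM in WT LSK, 71.0 and 68.7 in Ripk3-/- LSK, 1417 and 1157 in WT LK, and 943 and 944 in Ripk3-/- LK libraries. The Car1 difference was 3.80 ± 0.18 in WT and 3.74 ± 0.18 in Ripk3-/- cells (limma, adjusted p = 1.12e-12 and 6.67e-13). Car2, the second carbonic anhydrase, behaved differently. It had 1409.6 and 1297 CPM in WT LSK, 1415 and 1520.3 in Ripk3-/- LSK, 1485 and 1247 in WT LK, and 797 and 850.0 in Ripk3-/- LK libraries. LK and LSK cells overlapped in WT, at a difference of 0.01 ± 0.15, whereas Ripk3-/- LK cells lay below Ripk3-/- LSK cells by -0.83 ± 0.15 (adjusted p = 0.969 and 2.46e-04, the latter 0.0777 with no trend). Blvrb, a biliverdin reductase, was higher in LK cells by 1.97 ± 0.24 and 1.43 ± 0.24, and Mt2, a metallothionein that binds zinc, by 3.34 ± 0.51 and 2.52 ± 0.50. Trim10, a protein of late erythroid differentiation with 7 to 87 reads a library, passed in neither genotype.

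Further genes of the pathway were counted from lists drawn up beside the 36. Of all genes tested, 14.8% were higher and 9.16% lower in WT LK cells, and 12.2% and 7.95% in Ripk3-/- LK cells. Of 28 other heme and iron genes, 13 were higher and 0 lower in WT LK cells, and 13 were higher and 3 lower in Ripk3-/- LK cells. The largest changes in WT were those of Abcb6, a porphyrin transporter (3.81 ± 0.46), Alas1 and Slc40a1, the iron exporter ferroportin (3.09 ± 0.42). Of 22 other red cell genes, 6 were higher and 0 lower in WT, and 4 higher and 1 lower in Ripk3-/- cells; Pklr, the red cell pyruvate kinase, differed by 4.28 ± 0.58 and 1.95 ± 0.58. Of 19 other erythroid regulators, 3 were higher and 1 lower in WT, and 3 higher and 5 lower in Ripk3-/- cells, with Sox6 lower in both (-2.00 ± 0.41 and -2.26 ± 0.41). Of 15 genes of erythropoietin receptor signaling, 2 were higher and 3 lower in WT, and 1 higher and 3 lower in Ripk3-/- cells, with the feedback inhibitor Socs3 lower in both (-1.92 ± 0.27 and -2.58 ± 0.27).

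Markers of other lineages were counted in the same way. The shares of all genes beside them were 14.8% higher and 9.16% lower in WT LK cells, and 12.2% and 7.95% in Ripk3-/- LK cells. Of 17 granulocyte and monocyte markers, 10 were higher and 0 lower in WT LK than in WT LSK cells, with summed CPM on the common scale of 7953 to 8950 in WT LSK and 76896 to 87673 in WT LK libraries, and 9 were higher and 0 lower in Ripk3-/- cells (7835 to 8878 and 62354 to 80978). Of 9 mast cell and basophil markers 4 were higher and 2 lower in WT LK cells, and 5 of 8 tested were higher and 0 lower in Ripk3-/- LK cells (summed 277 and 726 to 809 in WT, 226 to 266 and 832 to 931 in Ripk3-/- libraries). Of 14 megakaryocyte markers tested 1 was higher and 2 lower in WT LK cells, and of 13 tested 3 were higher and 1 lower in Ripk3-/- LK cells (summed 731 to 818 and 589 to 600.1 in WT, 743 to 782 and 555 to 620 in Ripk3-/- libraries). Of 14 stem cell and LSK markers 10 were lower and 1 higher in WT LK cells, and 9 lower and 0 higher in Ripk3-/- LK cells (summed 2447 to 2545 and 1133 to 1168 in WT, 3189 to 3505 and 1157 to 1226 in Ripk3-/- libraries). Of 14 lymphoid markers tested 3 were lower in WT LK cells, and of 13 tested 3 were lower in Ripk3-/- LK cells, with none higher (summed 336 to 350 and 105 to 110 in WT, 466 to 549 and 98.5 to 107 in Ripk3-/- libraries). The part of these lineages in the members' differences was not tested.

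The second question was whether the members differed between Ripk3-/- and WT LK cells, where genotype and sex differ together. Car2 alone passed: it fell in Ripk3-/- LK cells, 1 of 34 members tested, against 0.473% of 13949 genes (14 genes higher and 52, or 0.373%, lower). It had 1302 and 1106 (deposited signal) in WT LK and 701 and 742 in Ripk3-/- LK libraries. The 2 groups did not overlap, and the log2 fold change was -0.73 ± 0.14 (SE, n = 2 against 2), with a limma adjusted p of 0.0165. The call was lost without WT LK replicate 1 (-0.62, adjusted p = 0.443), Ripk3-/- LK replicate 1 (-0.69, 0.304) or Ripk3-/- LK replicate 2 (-0.77, 0.0863), and also with no filter (0.347) and with no trend (0.677). An exact permutation test of 2 against 2 libraries cannot go below 0.333.

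Beyond Car2, values below 0 prevailed. Of the 34 members, 29 had a log2 fold change below 0, where 49.0% of all genes did, and the members' median was -0.41, where that of all genes was 0.01. Both Ripk3-/- LK libraries lay below both WT LK libraries for 20 members and above them for 2, against 19.9% and 20.1% of all genes. At an unadjusted p under 0.05 were 12 of the 34 members and 6.56% of all genes. With 1 library left out at a time, 25 to 30 members were below 0, and 22 of the 34 were below 0 each time. The 5 above 0 (51.0% of all genes) were Aqp1, Alas2, Ppox, Gfi1b and Slc4a1, none of which passed. These genes are measured in the same 4 libraries and are not independent of each other.

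Tspan33 and Rhd had the next smallest p. Tspan33 had 45.4 and 15.1 (deposited signal) in WT LK and 6.09 and 3.91 in Ripk3-/- LK libraries, and Rhd 115 and 90.0 in WT LK and 36.8 and 49.2 in Ripk3-/- LK libraries. Neither gene's groups overlapped, but neither passed, at -2.21 ± 0.59 for Tspan33 and -1.23 ± 0.33 for Rhd (limma, adjusted p = 0.144 and 0.139). In a fit of the 4 LK libraries alone, 7 members were called, all lower in Ripk3-/- cells, where 125 of all genes were called and 101 (0.724%) were lower: Car2, Rhd, Tspan33, Mt2, Blvrb, Cpox and Cldn13 (adjusted p from 0.00482 for Rhd to 0.0469 for Cldn13). Mt2 had 36.8 and 38.5 in WT LK and 13.6 and 13.0 in Ripk3-/- LK libraries, a difference of -1.43 ± 0.51 (adjusted p = 0.422 over all 8 libraries). Cpox had 103 and 112 in WT LK and 57.1 and 60.6 in Ripk3-/- LK libraries, at -0.86 ± 0.26 (0.240). Gata1 and Klf1 stood at -0.66 ± 0.28 and -0.68 ± 0.34 (0.632 and 0.764).

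By role, 5 of 6 factors, both receptors, 5 of 7 heme enzymes, both globins, 10 of 12 membrane genes and all 5 enzymes and others were below 0 in Ripk3-/- LK cells. Of the 4 companion lists, Socs3 passed and no other gene did, at -1.28 ± 0.27 (limma, adjusted p = 0.0268), with 36.5 and 27.1 in WT LK and 11.3 and 13.6 in Ripk3-/- LK libraries. That was 1 of the 15 erythropoietin receptor signaling genes and none of the other lists, beside 0.473% of all genes. Below 0 were 17 of the 28 other heme and iron genes, 14 of the 22 other red cell genes, 10 of the 19 other erythroid regulators and 8 of the 15 erythropoietin receptor signaling genes, beside the 49.0% of all genes.

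**Figure D3:**
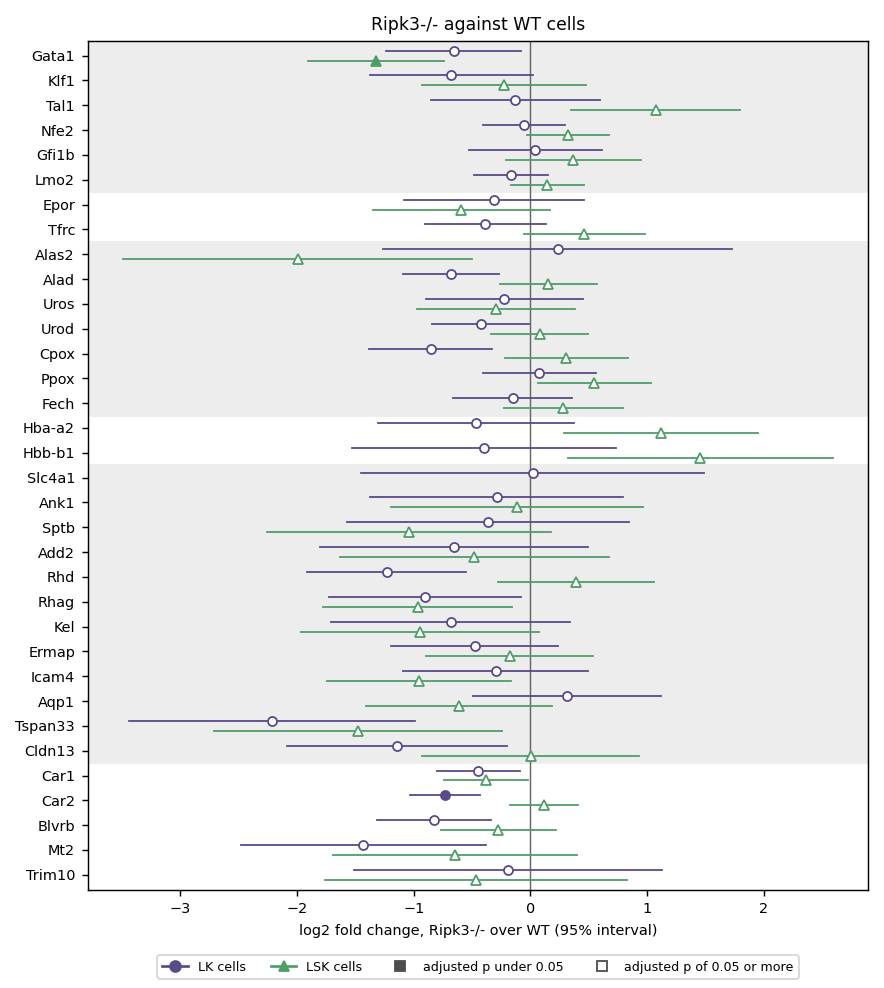
Log2 fold change of Ripk3-/- over WT for each member in LK cells (circles) and LSK cells (triangles) with the 95% interval of the limma fit on log2(deposited signal + 1); filled symbols have an adjusted p under 0.05. In LK cells 29 of 34 circles lie left of 0 and Car2 is filled, and in LSK cells the triangles lie on both sides and Gata1 is filled.

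In LSK cells, where genotype and sex also differ together, the members went both ways. Gata1 fell in Ripk3-/- LSK cells, the single call among 33 members tested, against 2.16% of 16817 genes (0.892% higher and 1.27% lower). It had 57.4 and 38.0 (deposited signal) in WT LSK and 22.2 and 14.7 in Ripk3-/- LSK libraries. The groups did not overlap, and the log2 fold change was -1.32 ± 0.28 (SE, n = 2 against 2), with a limma adjusted p of 0.0128. The Gata1 call was lost without WT LSK replicate 1 (-1.03, adjusted p = 0.123) or Ripk3-/- LSK replicate 2 (-1.04, 0.142), and also with no filter (0.0601), with no trend (0.138) and in a fit of the LSK libraries alone (0.126). Of the 33 members, 18 were below 0 (50.6% of all genes), and their median was -0.18 (-0.01 for all genes). The groups did not overlap for 11 members that were higher and 12 that were lower in Ripk3-/- LSK cells, against 21.4% and 23.2% of all genes.

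Tal1 and Hba-a2 had the next smallest p and were above 0. Tal1 had 49.0 and 21.9 in WT LSK and 61.7 and 79.6 in Ripk3-/- LSK libraries (1.07 ± 0.35, limma adjusted p = 0.115), and passed without WT LSK replicate 1 (1.64, 0.0456). Hba-a2 had 14.0 and 19.4 in WT LSK and 35.7 and 38.0 in Ripk3-/- LSK libraries (1.11 ± 0.40, adjusted p = 0.147). Hbb-b1 had 7.85 and 11.7 in WT LSK and 22.7 and 34.6 in Ripk3-/- LSK libraries (1.46 ± 0.55, adjusted p = 0.164). For all 3 genes the groups did not overlap, and none passed. Alas2, by contrast, had 12.9 and 1.66 in WT LSK and 0.563 and 0.489 in Ripk3-/- LSK libraries (-1.99 ± 0.72, adjusted p = 0.149), and WT LSK replicate 1 was the highest of all 8 libraries.

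By role, both globins and 5 of 7 heme enzymes were above 0 in Ripk3-/- LSK cells (49.4% of all genes), while 9 of 11 membrane genes and 4 of 5 enzymes and others were below 0. Among the 28 other heme and iron genes, Abcb6 (2.52 ± 0.46) and Slc40a1 (1.68 ± 0.43) rose and Ftl1, the ferritin light chain, fell (-0.89 ± 0.15) in Ripk3-/- LSK cells, with limma adjusted p of 0.00332, 0.0430 and 0.00189. Abcb6 had 3.18 and 1.24 in WT LSK and 13.3 and 20.6 in Ripk3-/- LSK libraries, and Ftl1 3352 and 4032 in WT LSK and 2107 and 1863 in Ripk3-/- LSK libraries. Of the 19 other regulators Myb, a factor of proliferating progenitors, rose (0.73 ± 0.17, adjusted p = 0.0216). None of 15 erythropoietin receptor signaling genes and none of 22 other red cell genes passed, with 2 and 4 at an unadjusted p under 0.05 (17.9% of all genes). Beside the calls in these lists, 0.892% of all genes were called higher and 1.27% lower in Ripk3-/- LSK cells.

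Genes of other cells moved with genotype. Of 17 granulocyte and monocyte markers, 5 were called higher in Ripk3-/- LK and 7 in Ripk3-/- LSK cells, and none was called lower. Of all genes, 14 of 13949 were called higher and 0.373% lower in LK cells, and 0.892% higher and 1.27% lower in LSK cells. By sign the markers went both ways, with 10 above and 7 below 0 in LK cells and 9 above and 8 below 0 in LSK cells. The 6 late granulocyte genes named next were all above 0 in both populations. They held all 5 calls in LK and 6 of the 7 in LSK cells. All of the markers below 0, 7 in LK and 8 in LSK cells, were therefore among the other genes of the list. Ltf, Ngp, Camp, Lcn2, S100a8 and S100a9, 6 genes of late granulocytes picked from that list with earlier results known, summed to 683 to 749 in WT LSK and 2263 to 2684 in Ripk3-/- LSK libraries, and to 771 to 772 in WT LK and 1663 to 1666 in Ripk3-/- LK libraries. The whole list summed to 9061 to 10196 and 8955 to 10020 in LSK, and to 68152 to 76908 and 54881 to 70672 in LK libraries, WT first, and none of its genes was at 0 in both libraries of a group. Of 8 mast cell and basophil markers tested, 2 fell in Ripk3-/- LSK cells (Cma1 and Tpsb2), and none of 14 megakaryocyte markers passed in either population. Of 14 stem cell and LSK markers, Flt3, a receptor of early progenitors, rose in Ripk3-/- LSK cells (0.78 ± 0.19, limma adjusted p = 0.0298), and the list summed to 2788 to 2899 in WT LSK, 3645 to 3956 in Ripk3-/- LSK, 1004 to 1024 in WT LK and 1010 to 1079 in Ripk3-/- LK libraries. The lymphoid markers, none of which passed in either population, summed to 382 to 399 in WT LSK, 532 to 620 in Ripk3-/- LSK, 92.7 to 96.7 in WT LK and 86.7 to 93.0 in Ripk3-/- LK libraries. Of the mast cell, megakaryocyte and lymphoid lists, 1 gene each was at 0 in both libraries of 1 group. The part of these cells in the differences of the members was not tested.

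**Figure D4:**
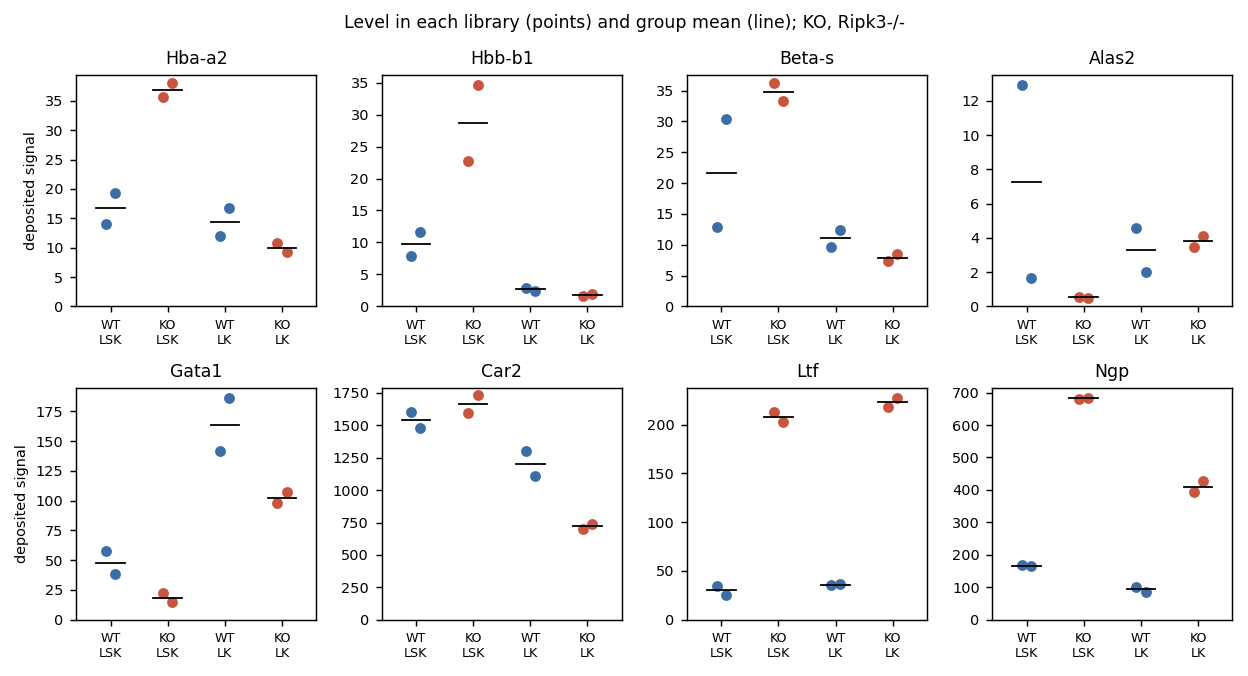
Deposited signal of 8 genes in each library (points) with the group mean (line), WT in blue and Ripk3-/- (KO) in red; the vertical axes start at 0 and differ between genes, and LSK and LK cells were scaled apart. Hba-a2 and Hbb-b1 are highest in the Ripk3-/- LSK libraries, WT LSK replicate 1 stands above the other 7 libraries for Alas2, Car2 is lowest in the Ripk3-/- LK libraries, and Ltf and Ngp are higher in the Ripk3-/- libraries of both populations.

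The genotype effects in LSK and LK cells were then compared with each other. No member passed that test by limma (0 of 33, against 0.358% of 15901 genes), and edgeR's quasi-likelihood test also called 0. At an unadjusted p under 0.05 were 9 of the 33 members and 10.1% of all genes. The smallest adjusted p belonged to Car2, whose genotype effect was higher in LSK than in LK cells by 0.85 ± 0.20 (limma, adjusted p = 0.0782). Rhd followed at 1.62 ± 0.46 (0.200) and Cpox at 1.16 ± 0.36 (0.249). Without WT LK replicate 2, Car2 passed (0.96, adjusted p = 0.0390).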

How the data were processed

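Sorted LSK and LK cells of WT and Ripk3-/- mice were profiled by RNA-seq (TruSeq Stranded mRNA libraries, 2 per group). The submitters' processing notes name TopHat and the mm9 build; the counting tool is not given in the sources used here. The authors deposited 1 table per library headed FPKM. Tested against the values, the deposited signal was CPM scaled by TMM factors computed within LSK and within LK, not divided by gene length: each library's values were whole multiples of 1 step (100% within 0.01), and edgeR cpm on the recovered reads gave the deposited values with a largest relative difference of 4.04e-09. Levels were therefore not ranked between genes. Library depth was 9782166 to 16280811 reads.

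Genotype comparisons and their difference were fitted on log2(deposited signal + 1), and LK against LSK on log2(CPM + 1) with TMM factors over all 8 libraries, by limma 3.58.1 (lmFit, eBayes with trend, 4 group means, two-sided). Fold changes on this scale understate those of low genes. Genes needed a mean of at least 1 over the libraries compared, p-values were adjusted by Benjamini-Hochberg over all genes tested, and a call was an adjusted p under 0.05. Alternatives were a pseudocount of 0.1, no filter, a mean of at least 5, no trend, edgeR 4.0.16 (quasi-likelihood on recovered reads), a replicate block, a fit of 1 population alone, median centring, other scalings and each library left out. The fit was also run on simulated data with independent genes, scaled over all 8 libraries. That run does not cover values scaled within LSK and within LK. Groups came from the sample labels.

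All 36 members are accounted for. A member is named with a test where called, or, with fewer than 3 called, the 3 with the smallest p, and at most 3 called genes per companion list. Other members, Alas1, Hbb-b1 and the late granulocyte genes were added after their values were seen. The members and lists were chosen with earlier results of these data known. Promoters were taken from RefSeq (GRCm38.p6), and coding sequences, as the longest reading frame, from GENCODE transcripts.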

Additional observations from a re-analysis of the deposited data

How the results depend on the processing

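Over all alternatives, no member called in the reported fits reversed its direction. In the comparison of genotypes in LK cells, members called were 0 with no filter, 0 with no trend and 7, all lower, in a fit of LK libraries alone, and 0 to 1 with 1 library left out, while members below 0 numbered 25 to 30. All genes called there, 66 in the reported fit, were 9 with no filter, 3 with no trend and 125 in the fit of LK libraries alone, and 13 to 101 with 1 library left out. In LSK cells, members called were 0 with no filter, 0 with no trend and 0 in a fit of LSK libraries alone, and 0 to 1 lower and 0 to 1 higher with 1 library left out; all genes called, 363 as reported, were 198, 120 and 195 under these settings, 237 by edgeR and 99 to 191 with 1 library left out. For the difference of the genotype effects, 0 to 1 members were called with 1 library left out, and all genes called, 57 as reported, were 3 with no filter, 2 with no trend and 17 to 90 with 1 library left out. For LK against LSK in WT, members called lower, 1 as reported, were 2 with no trend, 2 as deposited and 4 with total reads alone, members below 0 were 9 as deposited, 9 with total reads alone and 4 to 7 with 1 library left out, and all genes called, 3814 as reported, were 1998 with no trend and 1502 to 2634 with 1 library left out. With total reads alone, 26.4% of all genes called in WT and 34.6% in Ripk3-/- cells were higher in LK cells. In Ripk3-/- cells, members called lower, 6 as reported, were 3 with no trend and 3 to 4 with 1 library left out, and all genes called, 3072 as reported, were 1494 with no trend and 1489 to 2474 with 1 library left out. The cause of these shifts was not tested. Same-numbered libraries did not deviate together (correlations of deviations over genes of -0.0934 in LK, -0.0104 in LSK, -0.015 between WT LK and LSK and -0.145 between Ripk3-/- LK and LSK), so that the numbers were not taken as pairs. With the number as a replicate block, members called were 1 in LK, 1 in LSK, 0 for the difference, 21 for LK against LSK in WT and 21 in Ripk3-/- cells. With the numbers crossed, an alternative chosen after seeing the data, 23 members and 3435 genes were called for LK against LSK in Ripk3-/- cells. Slc4a1 held 0 to 31 and Alas2 5 to 130 reads a library, which limits the precision of their fold changes.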

Other observations

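Among red cell genes outside the 36, the embryonic globins were at or near 0: Hbb-bh1 at 0.00 in all 8 libraries, Hba-x above 0 in 1 library (0.305) and Hbb-y in 3 (up to 0.723, deposited signal). Beta-s, which RefSeq lists as a synonym of the adult beta globin Hbb-bs and which was named after its values were seen, had 12.9 and 30.4 in WT LSK, 36.2 and 33.2 in Ripk3-/- LSK, 9.65 and 12.4 in WT LK, and 7.36 and 8.45 in Ripk3-/- LK libraries. Its highest values were those of the Ripk3-/- LSK libraries, as for Hba-a2 and Hbb-b1, and it was lower in LK than LSK cells of Ripk3-/- mice (-1.66 ± 0.45, limma adjusted p = 0.00986) but did not pass between genotypes in LSK cells (0.77, 0.366).

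The 2 libraries of a group differed by a median of 0.24 to 0.28 on the log2 scale over the members with a mean of at least 1, where all such genes differed by 0.32 to 0.45. Alas2 had the widest gap in WT LSK (2.39), Add2 in Ripk3-/- LSK (1.18), Tspan33 in WT LK (1.53) and Slc4a1 in Ripk3-/- LK cells (1.22).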
